A study of Homo sapiens with 10 samples.

Results

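The genes described here encode the matrix glycoproteins, laminins and proteoglycans that cells secrete around themselves or carry on their surface, measured in A375 melanoma cells with and without doxycycline. A gene list of 59 members was matched by symbol to the platform's probe annotation, and 54 members had a probe set, 1 each, among 18569 probe sets in all. LAMA3, LAMA5, LAMB3, TNXB and LOXL2 were not analysed here. RNA came from 10 samples of A375, an established human line labelled as skin melanoma, each hybridised to its own Clariom S array. In 5 control samples the cells were plated without doxycycline, in the other 5 with doxycycline at 2 µg/ml, and both groups were frozen on day 4. The series title names Omomyc, a mutant form of the MYC dimerisation domain that interferes with MYC, but the labels give neither the construct nor its promoter, nor whether the line is a clone. No array analysed here is labelled as doxycycline without Omomyc, so an effect of the drug alone and an effect of an induced gene cannot be told apart. The samples are called biological replicas, and the labels are silent on whether each came from its own culture, so the spread behind every p-value may be technical in part.

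The extracellular matrix is built from a few families of large secreted proteins. Laminins are trimers of an alpha, a beta and a gamma chain that polymerise into the basement membrane, where nidogens and heparan sulfate proteoglycans tie them to the collagen network. Fibronectin forms fibrils on the cell surface through integrins, versican and its relatives bind hyaluronan, small leucine-rich proteoglycans coat collagen fibrils, and fibrillins and fibulins scaffold elastic fibres. Tenascins, thrombospondins, SPARC and osteopontin change how cells hold on to the rest, and syndecans, glypicans and CSPG4 present growth factors at the membrane. Melanoma cells make many of these proteins themselves, and fibronectin and tenascin are known from invasive melanoma.

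Doxycycline-treated cells had higher signal for many matrix genes and lower signal for a few. Of the 54 measured members 29 passed the test at an adjusted p under 0.05 with limma, 23 of them higher and 6 lower. Among all probe sets 38.1% passed, 20.9% as higher and 17.2% as lower, against 53.7% of the members. The median log2 fold change of the members was 0.25, beside 0.04 over all probe sets. Fibronectin FN1 (5.23-fold) and versican VCAN (4.29-fold) rose most, and biglycan BGN (4.11-fold) and the melanoma proteoglycan CSPG4 (2.63-fold) fell most. An absolute log2 fold change of 1 or more was reached by 13 of the called members, beside 6.47% of all probe sets. Of these 13 members 10 rose and 3 fell, where 2.43% of all probe sets rose and 4.04% fell by as much. For 24 members the 5 doxycycline arrays lay wholly above or below the 5 control arrays, 19 above and 5 below, which was so for 28.6% of all probe sets. RNA of bulk cells was measured, so fewer cells of a type and less RNA per cell cannot be told apart.

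**Figure D1:**
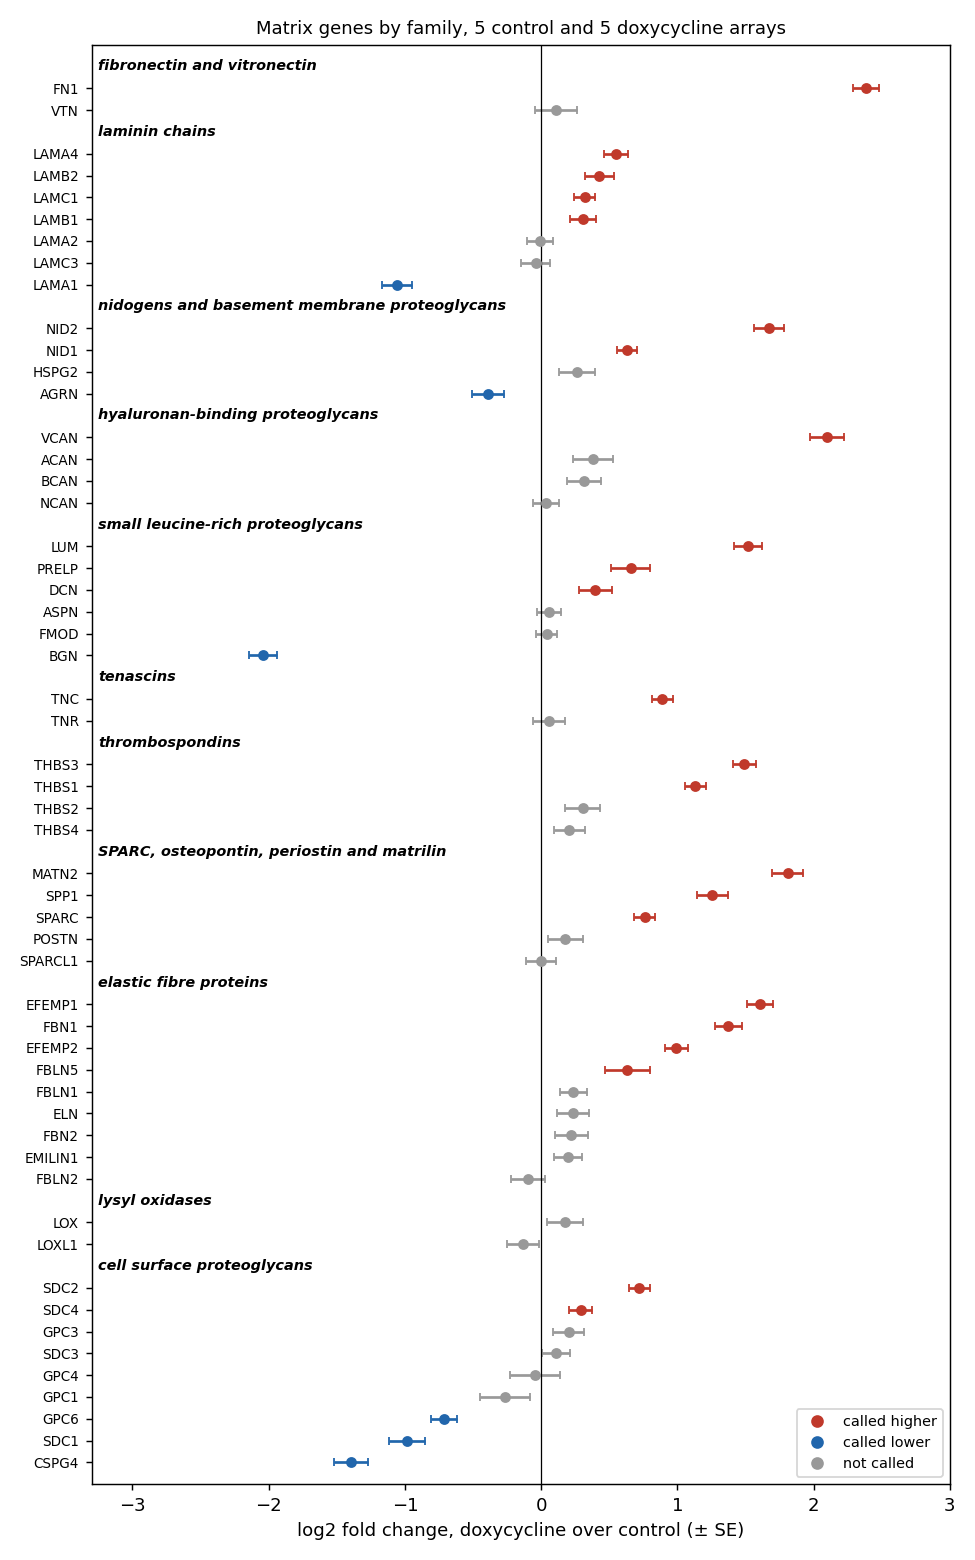
Log2 fold change of doxycycline over control for each of the 54 measured matrix genes, grouped by family; points are limma estimates, bars are ± SE, 5 arrays per group. Red points were called higher, blue points called lower and grey points not called; the range runs from -2.04 for BGN to 2.39 for FN1.

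Signals are log2 values after quantile normalization, so each fold change is measured against the rest of the array, and levels of different probe sets are not compared with each other. Array medians lay between 5.021 and 5.104. The table has no detection call, and a probe set was taken as dim in a group when its mean lay under 2.85 log2 units, the first quartile of all probe sets. By that mark 8 members were dim in both groups (ASPN, FMOD, TNR, SPARCL1, FBLN2, LOX, LOXL1 and GPC3), and none of them was called. The remaining 46 members hold all 29 calls, and among the probe sets not dim in both groups 47.7% were called, 25.8% as higher and 21.9% as lower. Of 9 melanocyte markers 5 were called higher and none lower, or 55.6% called beside 38.1% of all probe sets. The 5 were MITF, PAX3, ERBB3, S100B and TYR, the last with a log2 fold change of 0.23 and dim in both groups. SOX10 was not called (adjusted p = 0.102). SOX10 (8.71 in control and 8.91 with doxycycline), ERBB3 (10.26 and 10.62), S100B (7.58 and 7.84), MITF (7.12 and 8.33) and PAX3 (5.84 and 6.72) lay above the dim mark, while the pigment genes MLANA, TYRP1, TYR and PMEL were dim in both groups.

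**Figure D2:**
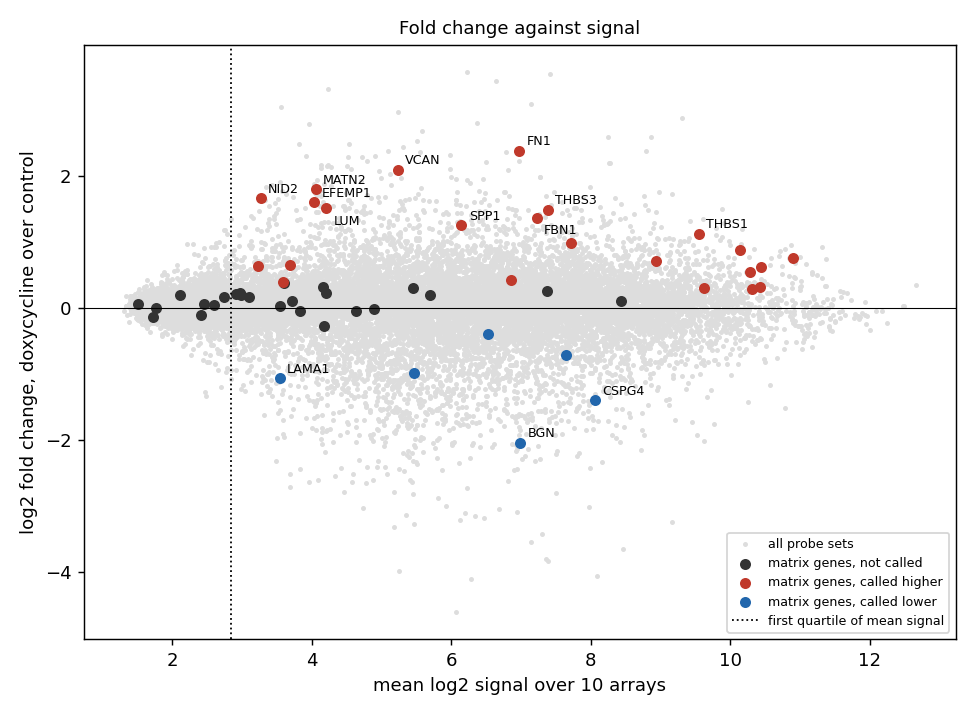
Mean log2 signal over the 10 arrays (x axis) against log2 fold change of doxycycline over control (y axis) for all 18569 probe sets (light grey) and the 54 matrix genes (dark grey not called, red called higher, blue called lower). The dotted line marks the first quartile of mean signal, 2.85, and members with an absolute log2 fold change of 1 or more are named.

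Promoter windows were available for 41 of the 54 members. The windows of the 3 risers and 2 fallers with the largest fold changes among these 41 are printed. They show what lies directly before a start site of the genes that moved most. Each is the 250 bases before a single start site in RefSeq's GRCh38.p14, on the strand of the gene, and other start sites were not searched. The CSPG4 window lies inside the annotated gene, which reaches to about position 75713500. Capitals mark exact matches of the 6 motifs searched, which were the E-box that MYC and MAX bind (CACGTG), the AP-1 element (TGAGTCA), the TATA box (TATAAA), the GC box (GGGCGG), the CCAAT box that NF-Y binds (CCAAT) and the core of the CRE, which CREB and ATF factors bind (TGACGT). The TATA box was searched on the gene's strand and the others on both strands, and overlapping matches each count.
FN1, chr2:215436069-215436318, minus strand: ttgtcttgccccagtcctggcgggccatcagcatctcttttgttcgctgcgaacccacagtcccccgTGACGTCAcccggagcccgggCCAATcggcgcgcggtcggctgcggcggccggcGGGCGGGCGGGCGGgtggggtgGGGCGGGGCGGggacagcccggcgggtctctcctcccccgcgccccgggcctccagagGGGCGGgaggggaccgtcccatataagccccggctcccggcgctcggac
VCAN, chr5:83471494-83471743, plus strand: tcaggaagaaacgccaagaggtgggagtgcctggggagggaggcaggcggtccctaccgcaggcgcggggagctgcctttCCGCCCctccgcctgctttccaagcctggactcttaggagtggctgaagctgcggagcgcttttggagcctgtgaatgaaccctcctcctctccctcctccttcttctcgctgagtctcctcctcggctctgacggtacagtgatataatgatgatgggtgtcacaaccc
NID2, chr14:52069060-52069309, minus strand: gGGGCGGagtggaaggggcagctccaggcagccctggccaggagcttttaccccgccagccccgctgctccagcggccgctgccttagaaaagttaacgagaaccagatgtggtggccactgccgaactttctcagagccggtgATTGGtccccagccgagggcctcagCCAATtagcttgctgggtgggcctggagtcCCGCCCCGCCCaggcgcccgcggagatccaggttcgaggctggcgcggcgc
BGN, chrX:153494730-153494979, plus strand: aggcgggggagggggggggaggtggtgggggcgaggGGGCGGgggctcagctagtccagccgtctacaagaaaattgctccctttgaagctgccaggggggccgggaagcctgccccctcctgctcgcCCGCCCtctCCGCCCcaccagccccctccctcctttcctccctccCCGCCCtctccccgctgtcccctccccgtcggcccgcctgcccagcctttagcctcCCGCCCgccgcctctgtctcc
CSPG4, chr15:75712849-75713098, minus strand: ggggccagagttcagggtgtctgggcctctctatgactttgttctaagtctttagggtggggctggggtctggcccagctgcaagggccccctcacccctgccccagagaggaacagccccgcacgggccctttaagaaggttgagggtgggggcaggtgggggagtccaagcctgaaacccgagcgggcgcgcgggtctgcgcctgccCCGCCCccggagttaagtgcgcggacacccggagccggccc

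The FN1 window holds 6 matches of the GC box, 1 CCAAT at -162 and a palindromic CRE that begins at -183 and matches the core on both strands. It was the single CRE core among the 41 members, or 2.44% of them beside 7.1% of all 35116 promoter windows. Each member counts with a single window, while all windows were counted without a limit per gene. The shares of members and of all windows thus rest on unlike sets. The GC box occurs 5 times before BGN, 3 times before NID2 and once each before VCAN and CSPG4. Across the members 28 of 41 windows (68.3%) held a GC box, beside 42.6% of all windows, with 13 of 18 among those called higher, 3 of 4 among those called lower and 12 of 19 among those not called. CCAAT was found in 12 of 41 windows (29.3%, beside 32% of all windows), 7 of them in members called higher and 5 in members not called. The E-box was present in 2 windows (4.88%, beside 6.34% of all windows), those of THBS4 and FBN2, neither of which was called. None of the 22 windows of called members held it, which says only that these letters are not in these 250 bases. TATAAA was in 4 windows (9.76%, beside 6.8%), among them that of GPC6 at -155, and TGAGTCA in 1 (2.44%, beside 4.2%), that of POSTN.

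Fibronectin showed the largest rise. FN1, whose product carries the RGD tripeptide that integrins hold, read 5.84, 5.65, 6.02, 5.58 and 5.82 log2 units on the 5 control arrays. With doxycycline it read 8.10, 8.06, 8.16, 8.30 and 8.24. The lowest treated array was more than 2 log2 units above the highest control array. The log2 fold change was 2.39 ± 0.10 (SE), with an adjusted p of 1.23e-10. VTN, which encodes the plasma glycoprotein vitronectin, did not pass, at 3.67 ± 0.21 and 3.78 ± 0.36 (SD, n = 5; adjusted p = 0.631).

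**Figure D3:**
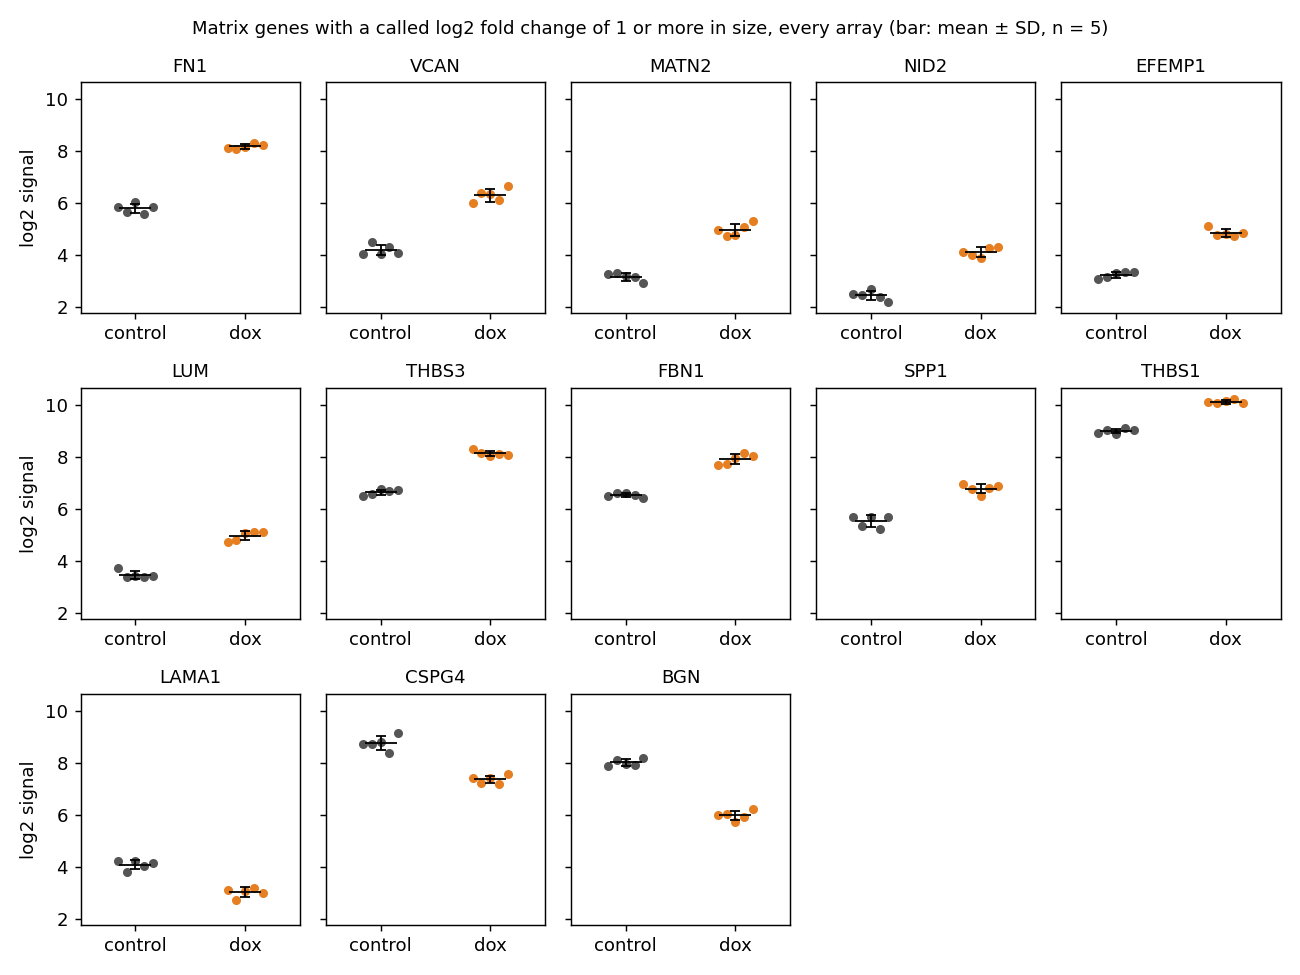
Log2 signal on every array for the 13 members called with an absolute log2 fold change of 1 or more, control in grey and doxycycline in orange, with mean ± SD (n = 5). In all 13 panels the groups do not overlap; 10 genes are higher with doxycycline and LAMA1, CSPG4 and BGN are lower.

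Laminin chains moved by small steps except for LAMA1. Of 7 measured chains 4 rose and 1 fell, or 71.4% called beside 38.1% of all probe sets and 47.7% of those not dim in both groups. The alpha chain LAMA4, which assembles with the beta chain LAMB1 and the gamma chain LAMC1 in laminins of vessels and of mesenchymal cells, rose from 10.01 ± 0.14 to 10.56 ± 0.07 (SD, n = 5; adjusted p = 1.06e-04). LAMC1, the gamma chain of most laminins, rose from 10.27 ± 0.08 to 10.59 ± 0.08 (adjusted p = 0.00389), and LAMB1 from 9.48 ± 0.16 to 9.78 ± 0.14 (adjusted p = 0.0199). The groups of LAMB1 overlapped, and its call was lost without control array 4 (adjusted p = 0.0532) and without doxycycline array 3 (adjusted p = 0.0557). LAMB2, a beta chain of nerve, muscle and kidney laminins, rose from 6.65 ± 0.21 to 7.08 ± 0.12 (adjusted p = 0.00454). LAMA1, the alpha chain of early embryonic basement membranes, was the faller, with control values of 4.20, 3.78, 4.21, 4.03 and 4.14. Its treated values were 3.11, 2.70, 3.08, 3.19 and 2.98, all under the lowest control array. That is a log2 fold change of -1.06 ± 0.11 (SE; adjusted p = 1.91e-06), in a probe set that ended close to the dim mark. LAMA2, the main alpha chain of muscle, and LAMC3 were not called, at -0.01 and -0.04.

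Among the proteins that link laminin to the rest of the basement membrane, both nidogens rose. NID2 read 2.50, 2.47, 2.68, 2.36 and 2.17 in control, all under the dim mark. In treated cells it read 4.11, 3.99, 3.86, 4.26 and 4.32. This made a log2 fold change of 1.67 ± 0.11 (SE; adjusted p = 1.68e-08) from a starting signal that was near background. NID1, bright in both groups, rose from 10.12 ± 0.08 to 10.75 ± 0.07 (SD, n = 5; adjusted p = 8.61e-06). Of the heparan sulfate proteoglycan genes 1 fell and 1 was not called. AGRN, which encodes agrin, known for clustering receptors at the nerve-muscle synapse, fell from 6.72 ± 0.20 to 6.33 ± 0.21 (adjusted p = 0.0174), with overlapping groups. Perlecan, HSPG2, was at 7.25 ± 0.17 and 7.51 ± 0.29 and was not called (adjusted p = 0.137), but passed without doxycycline array 2 (adjusted p = 0.024).

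Of the proteoglycans that bind hyaluronan, versican was the member that rose. VCAN, common in loose and provisional matrix, had control values of 4.05, 4.49, 4.05, 4.28 and 4.06 log2 units. Its treated values were 6.0, 6.36, 6.33, 6.10 and 6.64, with no overlap. The log2 fold change was 2.10 ± 0.13 (SE; adjusted p = 5.65e-09). Aggrecan, ACAN, the bulk proteoglycan of cartilage, stood at 0.38 (adjusted p = 0.0519), and brevican, BCAN, of brain matrix at 0.32 (adjusted p = 0.0548). Both lay so close to the threshold that several settings called them, among them the removal of control array 5 for ACAN (adjusted p = 8.77e-04) and of control array 1 for BCAN (adjusted p = 0.0176). Neurocan, NCAN, also of brain, was at 0.03. In RefSeq's gene order each of the 4 genes has a hyaluronan and proteoglycan link protein gene as its next protein-coding neighbour. HAPLN1, beside VCAN, was at 10.00 ± 0.10 in control and 9.97 ± 0.14 with doxycycline (SD, n = 5; adjusted p = 0.837). The other neighbours, HAPLN2 (-0.07), HAPLN3 (0.27) and HAPLN4 (0.09), were not called either.

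The small leucine-rich proteoglycans held the largest fall beside clear rises. Biglycan, BGN, which binds collagen and can signal through innate immune receptors, read 7.88, 8.12, 7.97, 7.90 and 8.19 in control. With doxycycline the arrays gave 5.98, 6.03, 5.72, 5.91 and 6.22. Every treated array was thus well under every control array, and the log2 fold change was -2.04 ± 0.10 (SE; adjusted p = 9.85e-10). Lumican, LUM, which sets the spacing of collagen fibrils in the cornea, went the other way, from 3.71, 3.36, 3.42, 3.36 and 3.42 to 4.74, 4.81, 5.08, 5.10 and 5.12. Its log2 fold change was 1.52 ± 0.10 (SE; adjusted p = 2.02e-08). PRELP, which anchors basement membranes to connective tissue, rose from 3.37 ± 0.25 to 4.03 ± 0.29 (SD, n = 5; adjusted p = 0.00182), with control array 4 above the lowest treated array. Decorin, DCN, which binds collagen and TGF-beta, rose from 3.40 ± 0.18 to 3.79 ± 0.25 (adjusted p = 0.0172), and its groups overlapped narrowly. LUM and DCN are neighbouring genes, as are FMOD and PRELP; FMOD (0.04) and asporin ASPN (0.06) were dim throughout and were not called.

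Tenascins and thrombospondins act on adhesion more than they build structure, and 3 of the 6 measured members rose while the other 3 were not called. In each family 50% were called, beside 38.1% of all probe sets and 47.7% of those not dim in both groups. Tenascin C, TNC, an anti-adhesive protein of wounds and tumours, rose from 9.69 ± 0.08 to 10.58 ± 0.09 (SD, n = 5; adjusted p = 3.09e-07), while the neural TNR was dim. Thrombospondin THBS1, which activates latent TGF-beta and restrains vessel growth, was at 8.91, 9.02, 8.90, 9.09 and 9.02 on the control arrays. The treated arrays stood at 10.12, 10.05, 10.13, 10.24 and 10.06. All 5 were higher by nearly 1 log2 unit or more, with a log2 fold change of 1.13 ± 0.08 (SE; adjusted p = 1.98e-08). THBS3, a pentameric relative, read 6.50, 6.58, 6.74, 6.68 and 6.71 in control and 8.31, 8.16, 8.03, 8.10 and 8.08 with doxycycline. The groups were apart, with a log2 fold change of 1.49 ± 0.08 (SE; adjusted p = 2.93e-09). THBS2 (0.30, adjusted p = 0.0761) and THBS4 (0.21, adjusted p = 0.17) were not called, although THBS2 passed without doxycycline array 1 (adjusted p = 0.0048).

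SPARC, a collagen-binding matricellular protein, rose from 10.52 ± 0.11 to 11.28 ± 0.08 (SD, n = 5; adjusted p = 2.37e-06). Osteopontin, SPP1, a secreted integrin ligand, had control values of 5.67, 5.34, 5.70, 5.22 and 5.67, and treated values of 6.95, 6.76, 6.49, 6.79 and 6.89. The groups were apart, and the log2 fold change was 1.26 ± 0.12 (SE; adjusted p = 5.71e-07). Matrilin MATN2, an adaptor protein of matrix filaments, rose from 3.27, 3.28, 3.19, 3.15 and 2.90 to 4.95, 4.73, 4.78, 5.09 and 5.29. At 1.81 ± 0.11 (SE; adjusted p = 1.02e-08) it had the third largest rise of the members. Periostin, POSTN, was at 0.18 and SPARCL1 at -0.0036, and neither was called.

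In the elastic fibre group 4 of 9 genes rose and none fell, a called share of 44.4% that is near the 38.1% of all probe sets. Fibrillin FBN1, the backbone of microfibrils, read 6.49, 6.60, 6.61, 6.55 and 6.43 in control. The treated arrays read 7.70, 7.71, 7.96, 8.16 and 8.03, more than 1 log2 unit above the highest control value. Its log2 fold change was 1.37 ± 0.10 (SE; adjusted p = 3.25e-08). EFEMP1, a fibulin, rose from 3.08, 3.15, 3.31, 3.33 and 3.32 to 5.12, 4.75, 4.79, 4.71 and 4.85, again without overlap. The change was 1.61 ± 0.09 (SE; adjusted p = 5.01e-09). EFEMP2, the fibulin that brings lysyl oxidase to elastin, rose from 7.22 ± 0.12 to 8.21 ± 0.10 (SD, n = 5; adjusted p = 2.88e-07). FBLN5, another elastin-binding fibulin, rose from 2.92 ± 0.30 to 3.55 ± 0.34 (adjusted p = 0.00668), with control array 4 inside the treated range. Elastin itself, ELN, stayed near the dim mark and was not called (0.23, adjusted p = 0.146). FBN2 (0.22), FBLN1 (0.24), FBLN2 (-0.10) and EMILIN1 (0.20) did not pass, nor did the cross-linking enzymes LOX (0.18) and LOXL1 (-0.13). FBLN1 passed without control array 4 (adjusted p = 0.0445) or doxycycline array 4 (adjusted p = 0.0396), EMILIN1 without control array 5 (adjusted p = 0.0396) and LOX without doxycycline array 2 (adjusted p = 0.0487).

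Proteoglycans of the cell surface were the family with as many called members lower as in all other families together, 3 against 3. Of its 9 genes 2 rose and 3 fell, or 55.6% called beside 38.1% of all probe sets. CSPG4, a transmembrane chondroitin sulfate proteoglycan used as a melanoma antigen, read 8.71, 8.73, 8.79, 8.38 and 9.16 in control. It read 7.41, 7.23, 7.40, 7.19 and 7.55 with doxycycline, and its groups did not meet. The log2 fold change was -1.40 ± 0.12 (SE; adjusted p = 3.66e-07). The syndecans, transmembrane heparan sulfate carriers, split. SDC1, the epithelial and plasma cell syndecan, fell from 5.95 ± 0.16 to 4.97 ± 0.29 (SD, n = 5; adjusted p = 2.31e-05). SDC2 rose from 8.58 ± 0.10 to 9.30 ± 0.07 (adjusted p = 2.93e-06) and SDC4, the syndecan of focal adhesions, from 10.17 ± 0.08 to 10.46 ± 0.11 (adjusted p = 0.0107), while the neural SDC3 was at 0.11 and not called. Of the glypicans, which are held to the membrane by a lipid anchor, GPC6 fell from 8.0 ± 0.04 to 7.28 ± 0.20 (adjusted p = 2.94e-05). GPC1 (-0.27), GPC3 (0.20) and GPC4 (-0.05) did not pass; GPC1 did so without control array 2 (adjusted p = 0.0426).

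For 9 pairs of relatives or neighbours, picked after their values were seen, the difference of the log2 signals was taken on each array and averaged per group. These values are a description, without a test. LUM gained 1.12 ± 0.18 (SE) log2 units on its neighbour DCN, and NID2 gained 1.04 ± 0.13 on NID1. VCAN gained 2.13 ± 0.10 on its neighbour HAPLN1. EFEMP1 gained 0.61 ± 0.06 on EFEMP2, SDC2 gained 0.43 ± 0.09 on SDC4 and THBS3 gained 0.36 ± 0.08 on THBS1. LAMA4 parted from LAMA1 by 1.61 ± 0.14 and from its partner LAMB1 by 0.24 ± 0.10. GPC5, the gene next to GPC6, rose from 2.43 ± 0.23 to 4.27 ± 0.22 (SD, n = 5) and parted from GPC6 by 2.55 ± 0.21. In all pairs except LAMA4 with LAMB1 the differences on the 5 doxycycline arrays lay wholly above those on the 5 control arrays. Signal near background compresses fold changes, which bears on the pairs with a dim member, NID2 and GPC5 in control.

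Genes that build or read this matrix were followed in 3 further lists. Of 34 matrix receptor genes 16 rose and 5 fell, or 61.8% called beside 38.1% of all probe sets, with a median log2 fold change of 0.23. The integrin chains ITGAV (1.20 ± 0.11, SE), which pairs into receptors for fibronectin, vitronectin and osteopontin, ITGA10 (1.14 ± 0.15), ITGA2 (1.07 ± 0.08) and ITGA5 (1.05 ± 0.07) rose most. ITGA5 and ITGB1 form the main fibronectin receptor, and ITGB1 rose from 9.95 ± 0.09 to 10.49 ± 0.07 (SD, n = 5; adjusted p = 4.13e-05). Of the other beta chains that pair with ITGAV, ITGB8 rose (0.33), and ITGB3 (0.04), ITGB5 (0.23) and ITGB6 (0.01) were not called. These beta chains are named here after their values were seen. The receptors that fell were ITGA3 (-1.14 ± 0.09, SE) and ITGB4 (-0.96 ± 0.12), both parts of laminin receptors, the hyaluronan receptor HMMR, which is also a mitotic spindle protein (-1.08 ± 0.11), ITGB7 (-0.46 ± 0.11) and the collagen receptor DDR2 (-0.44). Laminin receptor genes did not move as a group. ITGA7 (1.04 ± 0.14, SE) and BCAM (0.94 ± 0.09), which also bind laminin, rose, and ITGA6, the partner of ITGB4, was not called (0.14). These genes too are named after their values were seen.

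Enzymes that make, trim or degrade glycosaminoglycan chains rose in 19 of 53 cases and fell in 8, or 50.9% called beside 38.1% of all probe sets and 47.7% of those not dim in both groups. Their median log2 fold change was 0.04, the same as over all probe sets. CEMIP, which drives breakdown of hyaluronan, rose from 7.56 ± 0.13 to 10.16 ± 0.12 (SD, n = 5), a 6.05-fold difference (adjusted p = 3.25e-11). SULF1, which removes sulfate groups from heparan sulfate outside the cell (1.56 ± 0.08, SE), NDST3, which begins heparan sulfate modification (1.35 ± 0.10), and DSE, which makes dermatan sulfate (1.27 ± 0.12), also rose. HS6ST2, a heparan sulfate sulfotransferase (-1.28 ± 0.08), and B3GALT6, which helps build the linker of heparan and chondroitin sulfate chains (-1.08 ± 0.10), fell most. CSGALNACT2 of chondroitin synthesis (-0.87 ± 0.11) and PAPSS2, which makes the sulfate donor (-0.78 ± 0.08), followed.

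Among 69 other matrix proteins and proteoglycans 13 rose and 7 fell, or 29% called, which is under the 38.1% of all probe sets, and 21 of the 69 were dim in both groups. GPC5 (1.84 ± 0.13, SE), the basement membrane protein FREM2 (1.19 ± 0.10), ECM1 (1.18 ± 0.08) and the lysyl oxidase relative LOXL4 (1.11 ± 0.09) rose most. CCN3, a matricellular growth regulator (-1.48 ± 0.14), EMILIN2 (-0.85 ± 0.18), FRAS1 (-0.80 ± 0.13) and SVEP1 (-0.79 ± 0.19) had the largest falls.

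**Figure D4:**
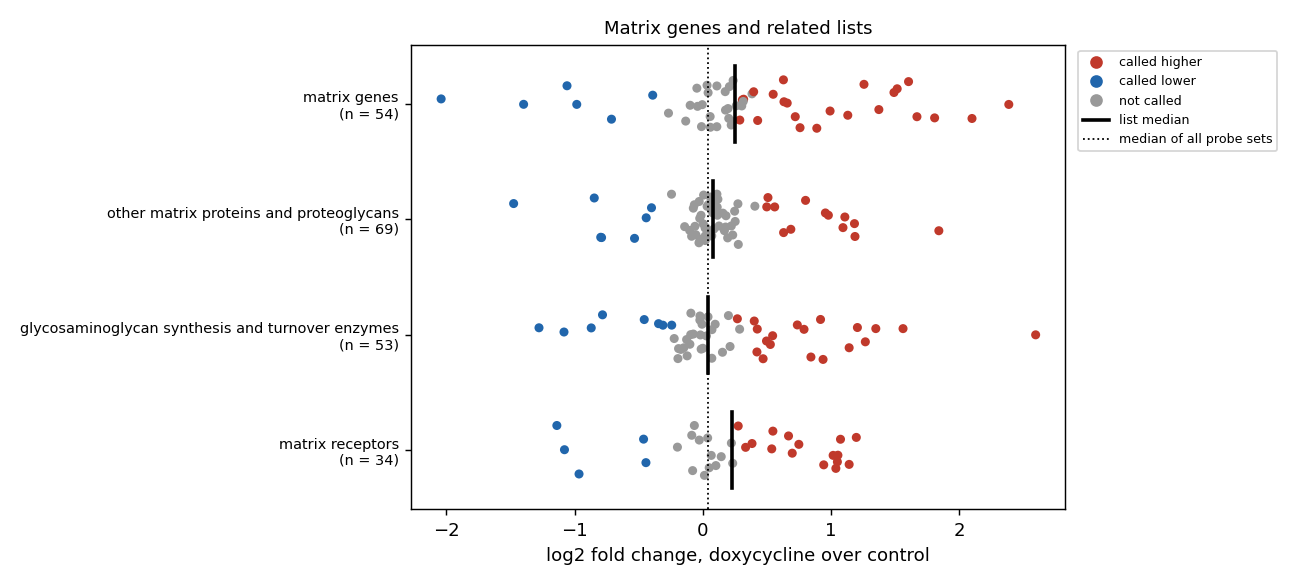
Log2 fold change of doxycycline over control for the 54 matrix genes and 3 related lists (69, 53 and 34 genes); each point is 1 gene, coloured by call, the thick bar is the list median and the dotted line the median of all probe sets, 0.04. The medians are 0.25, 0.08, 0.04 and 0.23 from top to bottom, and vertical spread within a row has no meaning.

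Markers of other cells that make matrix were read on the same arrays. Of 9 fibroblast markers 4 rose and none fell, a called share of 44.4% beside 38.1% of all probe sets, with a mean level over the markers of 4.21 to 4.33 on control arrays and 4.63 to 4.73 on doxycycline arrays. The growth factor receptors PDGFRA (1.64) and PDGFRB (1.16), S100A4 (0.78) and the collagen gene COL1A1 (0.32) were those that rose. COL1A2 (4.6 in control and 4.65 with doxycycline) and TWIST2 (4.48 and 4.45) were not called, and FAP, THY1 and PDPN were dim in both groups. Endothelial markers changed in 1 of 8 cases, the receptor KDR (1.18), with PECAM1, CDH5, TEK and CLDN5 dim in both groups. EGFL7 (5.94 in control and 5.70 with doxycycline), ESAM (4.09 and 4.22) and VWF (3.58 and 3.63) lay above the dim mark and were not called. Leukocyte markers rose in 2 of 7 cases, CD14 (0.51) and LYZ (1.44), with PTPRC, CD3E and ITGAM dim in both groups. The other two leukocyte markers, CD74 (11.50 in control and 11.68 with doxycycline) and CD68 (8.84 and 9.04), were bright and not called. Keratinocyte markers rose in 1 of 7 cases, KRT5 (0.39), which was itself among the 6 of 7 that were dim in both groups. The remaining marker, KRT10, was not called. The part of other cell types in the matrix changes was not tested beyond these levels.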

How the data were processed

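The series' value table holds deposited log2 expression values for 18569 probe sets on 10 arrays, made with RMA per the submitters' processing notes; for its version and any probe set filter, the sources used here give nothing. RMA forces near-equal distributions on the arrays, so a change of total RNA would not be seen. Precision is limited by having 5 arrays per group (median SE of a log2 fold change 0.103). Gene symbols came from the platform annotation (17511 probe sets with 1 symbol, 0 with several, 1058 without).

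Doxycycline was compared with control with limma 3.58.1 (lmFit, then eBayes, under R 4.3.3). The model held group alone, tests were two-sided, and p values were adjusted after Benjamini and Hochberg across the 18569 probe sets, with no filter. The code was tested on simulated data. Members, lists, pairs and motifs were chosen with earlier results of these data known. Every member is named; called members with an absolute log2 fold change of 1 or more are given on every array, and up to 4 called genes per direction from each other list (all where 5 or fewer moved that way and are spelled out), plus genes marked as chosen later, neighbours and markers. Alternatives were the replicate number as a block, filters at the 25th percentile and the median of signal, median centring, trend and robust eBayes, array weights, an unmoderated test, and leaving out each array. Promoter windows and gene order came from RefSeq for GRCh38.p14.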

Additional observations from a re-analysis of the deposited data

Results flagged for a closer look

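Within 108 groups of 5 arrays (54 members, 2 groups each), 9 had a highest or lowest array set apart from the other 4 by a gap of more than 0.71 of the group's range, where chance gives about 1 in 20. They fell on 6 arrays. Among called members these were NID1 on doxycycline array 2 (10.64, the others 10.76 to 10.81), LUM on control array 1 (3.71, the others 3.36 to 3.42), DCN on control array 5 (3.09, the others 3.40 to 3.51), SPARC on doxycycline array 4 (11.15, the others 11.29 to 11.34) and GPC6 on control array 1 (8.07, the others 7.97 to 7.98). Among members not called these were VTN (4.40, the others 3.52 to 3.72) and LAMC3 (4.14, the others 3.68 to 3.74), both on doxycycline array 1, HSPG2 on control array 5 (7.54, the others 7.13 to 7.22) and LOX on control array 2 (2.88, the others 2.56 to 2.63). The calls of these 9 members were the same without the array concerned.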

How the results depend on the processing

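Of the 29 called members 26 kept their direction and call in every one of the 17 alternatives that tested them. The exceptions were LAMB1 without control array 4 or doxycycline array 3, and, in the unmoderated test, AGRN (-0.39, adjusted p = 0.051) and DCN (0.40, adjusted p = 0.0521). No called member changed sign. Of the 25 members not called, 17 stayed so throughout, and ACAN, BCAN, THBS2, FBLN1, EMILIN1, LOX, GPC1 and HSPG2 passed in at least 1 alternative, with 6 uncalled members changing sign in at least 1. Counts of called members ran from 29 to 32 when single arrays were left out, from 13 to 15 for fold changes of at least 1 log2 unit, and from 6378 to 7237 for all probe sets. Centring each array on its median called 33 members, beside 39.4% of all probe sets. Without probe sets under the median of mean signal 25 members were tested and 22 called, beside 60.2% of the 9285 probe sets tested. Of these 22 members 8 had an absolute log2 fold change of 1 or more. Among other matrix proteins 3 genes were then lower, and among matrix receptors 3, since fewer genes were tested. The replicate block called 30 members, 24 higher and 6 lower, and 6476 probe sets. Deviations of same-numbered samples correlated between -0.437 and -0.007. None was positive, but so few values cannot settle whether the numbers pair the samples. Members dim in both groups carry no information on a change below background.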
